A study of Mus musculus with 54 samples.

Results

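The replication timing of the 129 allele was compared with that of the Cas allele in mouse embryonic fibroblasts (MEFs), window by window along the autosomes. All windows of 50 kb on the autosomes were taken, 43941 of the 46268 in the deposited table, and in each the value of the Cas allele was subtracted from that of the 129 allele. The difference was averaged over the 2 profiles of an embryo and then over 4 embryos. A profile joins 1 library of early and 1 of late S phase, so the fibroblasts hold 16 of the 54 libraries of the series and 8 of its 27 profiles.

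The assay was Repli-Seq, in which DNA made during a pulse of BrdU is collected from cells sorted into early and late S phase. A timing value is the log ratio of early to late signal of 1 allele, read here as log2, so a positive value means early replication. A positive difference means that the 129 allele replicated earlier. All 4 embryos carry the cross label cas / 129, with the label female for embryos 1 and 2 and male for embryos 3 and 4. Their cells were grown in DMEM with serum with no treatment named. By the usual convention the first name in a cross is the mother, which would make 129 the paternal genome in every embryo. Strain and parent of origin cannot be told apart in these cells. Other hybrids of 129 and Cas served for comparison: embryonic stem cells (ESCs) of 5 lines with 13 profiles, and neural precursor cells (NPCs) of 2 lines with 3 profiles, taken at day 11. The ESCs were grown without feeders in a serum-free medium with kinase inhibitors (2i) or, for some profiles of F121-6 and F121-9, on feeder cells, and F123 is labelled male and the other lines female. Among them the Cas129 line carries the cross label of the embryos, and the F121 lines and F123 the reverse one. The age of the embryos is not given in the sources used here, nor whether the 2 profiles of an embryo are separate cultures. P-values of the test between alleles in MEFs therefore measure the spread between embryos, drawn towards a value shared by all windows. In comparisons with ESCs and NPCs the spread is pooled over all lines and embryos. The test among embryos uses the spread between repeat profiles.

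Mammalian chromosomes replicate in large domains that each fire at a typical time of S phase, with gene-rich active chromatin early and gene-poor, lamina-bound chromatin late. The time of many domains changes as cells differentiate. At imprinted loci, where only the maternal or the paternal copy of a gene is expressed, the copies can also replicate at different times, and in hybrid mice sequence differences between strains can shift timing as well.

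The sequences below belong to the loci on which the imprinted results turn. The fibroblast difference was large and of opposite sign at 2 clusters of microRNA (miRNA) genes. The Mir344 cluster lies beside Ndn and Magel2 on chromosome 7 (13 genes between 61683124 and 62085310), and the other cluster lies within the Dlk1 to Dio3 domain on chromosome 12 (61 genes between 109544541 and 110278129). Mature miRNAs from RefSeq (GRCm38.p6) are printed 5′ to 3′, with the seed, bases 2 to 8, in capitals. The first 6 come from the Mir344 cluster and the last 4 from the Dlk1 to Dio3 domain.
miR-344d-3p: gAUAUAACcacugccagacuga
miR-344e-3p: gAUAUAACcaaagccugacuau
miR-344h-3p: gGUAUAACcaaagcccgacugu
miR-344b-3p: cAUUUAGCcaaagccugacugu
miR-344c-3p: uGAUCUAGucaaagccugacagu
miR-344-3p: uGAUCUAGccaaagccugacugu
miR-410-3p: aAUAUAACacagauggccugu
miR-379-5p: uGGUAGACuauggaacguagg
miR-411-5p: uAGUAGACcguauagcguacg
miR-127-3p: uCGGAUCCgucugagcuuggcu

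The seed AUAUAAC is shared by miR-344d-3p and miR-344e-3p, whose genes lie where the 129 allele replicated earlier, and by miR-410-3p, whose gene lies where the Cas allele did. The seed GAUCUAG is shared by miR-344c-3p and miR-344-3p.

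The promoters of 4 imprinted genes are shown because Ndn, Magel2 and Mkrn3 moved together in 1 direction and Meg3 in the other. Each is the 250 bases before the gene's start in RefSeq (GRCm38.p6, the same coordinates as mm10), printed 5′ to 3′ on the gene's strand. The capitals mark the dinucleotide CG, the target of the DNA methylation that marks imprinted copies, which reads the same on both strands.
Ndn promoter, chr7:62348027-62348276 (+ strand): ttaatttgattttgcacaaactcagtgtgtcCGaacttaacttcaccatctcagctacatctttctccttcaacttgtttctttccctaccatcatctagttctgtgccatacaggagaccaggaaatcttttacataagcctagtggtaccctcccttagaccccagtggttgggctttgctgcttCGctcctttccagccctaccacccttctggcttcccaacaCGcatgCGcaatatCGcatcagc
Magel2 promoter, chr7:62376729-62376978 (+ strand): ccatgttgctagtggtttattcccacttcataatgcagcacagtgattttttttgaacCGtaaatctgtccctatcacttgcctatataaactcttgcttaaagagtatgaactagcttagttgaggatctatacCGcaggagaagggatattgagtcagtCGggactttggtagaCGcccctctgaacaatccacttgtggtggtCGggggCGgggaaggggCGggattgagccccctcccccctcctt
Mkrn3 promoter, chr7:62420154-62420403 (- strand): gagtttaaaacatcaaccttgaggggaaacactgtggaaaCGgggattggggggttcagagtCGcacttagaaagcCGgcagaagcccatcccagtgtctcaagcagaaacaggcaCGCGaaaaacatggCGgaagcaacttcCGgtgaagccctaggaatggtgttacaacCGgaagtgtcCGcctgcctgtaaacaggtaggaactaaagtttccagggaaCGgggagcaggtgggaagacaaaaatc
Meg3 promoter, chr12:109540746-109540995 (+ strand): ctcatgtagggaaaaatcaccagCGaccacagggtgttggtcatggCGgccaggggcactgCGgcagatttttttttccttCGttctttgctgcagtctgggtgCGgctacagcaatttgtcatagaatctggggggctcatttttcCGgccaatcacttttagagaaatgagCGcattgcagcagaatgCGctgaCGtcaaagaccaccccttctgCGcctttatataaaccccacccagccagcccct

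CG occurred 5 times before Ndn, 7 times before Magel2 and 10 times each before Mkrn3 and Meg3. The median over 32851 promoters of this length was 6, and 92.1% of them held at least 1. For Meg3 RefSeq lists a further start, and the 250 bases before that one hold 0 CG. The counts describe these windows of sequence and were not tested against timing.

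The X chromosome, which was left out of all comparisons, bears on the labels. In embryos 1 and 4 the 129 copy of the X had a flat track (SD over windows 0.19 to 0.30, against 2.29 to 2.33 on the Cas copy). In embryos 2 and 3 both copies varied along the X (1.32 to 1.34 and 1.60 to 1.69). A son of a Cas mother carries no 129 copy of the X, and a daughter carries both. Embryo 1, labelled female, had the flat 129 track and embryo 3, labelled male, did not, so their tracks go against their labels while those of embryos 2 and 4 do not. Results are therefore also given without those embryos. Autosomal allele means lay between -0.22 and -0.10, repeat profiles of an embryo differed with a noise SD of 0.315 ± 0.0215 (n = 4 embryos), and read depth is unknown. The fibroblast markers had a mean percentile of timing of 77.2 in MEFs against 44.4 in ESCs and 51.0 in NPCs, and 11 of 12 replicated in the early part of the scale. Markers of other cell types had mean percentiles in MEFs of 93.7 for epithelial, 76.1 for macrophage, 68.2 for endothelial, 65.6 for pluripotent and 50.4 for neural markers. Macrophage and endothelial markers also had higher percentiles in MEFs than in ESCs (67.1 and 61.8) and NPCs (66.9 and 61.7). Pluripotent and neural markers had lower percentiles than in ESCs (84.7 and 62.9) and NPCs (66.3 and 61.2). Epithelial markers had 91.7 in ESCs and 95.3 in NPCs. Timing is not expression, so this describes only when the marker genes replicated.

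Of the 43941 windows, 6109 (13.9%) were called between the alleles, at an adjusted p below 0.05 (limma with Benjamini-Hochberg adjustment over all autosomal windows) and a difference of at least 0.5. The 129 allele was earlier in 2609 (5.94%) and the Cas allele in 3500 (7.97%). Without embryos 1 and 3 the count was 6359. Neighbouring windows are not independent, since the noise of adjacent windows correlated at 0.803 to 0.81 within embryos. Called windows of 1 direction were therefore joined, bridging up to 2 windows, and runs of 200 kb or more are called regions. There were 530, and 129 was earlier in 243 and Cas in 287, covering 281 Mb.

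A typical region was 400 kb long, the longest 2500 kb. In 529 regions all 4 embryos had the direction of the mean, and in 510 all 8 profiles. The regions were called in these same embryos, so the selection favours this agreement. Most regions did not pair an early with a late allele. Both alleles lay below 0 in 300 regions and both above it in 165, while in 65 they lay on either side. The median difference was 0.67 in size, and 55 regions reached 1. Regions with an earlier Cas allele lay later in S phase, where the earlier allele had a median level of -0.67 against 0.27 in regions with an earlier 129 allele.

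Among windows ranked by the mean timing of both alleles in MEFs, calls were spread over late and middle S phase. In the latest decile 6.4% of windows were called, and in deciles 2 to 7 between 15.7% and 22.8%. The share then fell to 8.78%, 4.82% and, in the earliest decile, 1.18%. The direction shifted along the scale. In decile 4 the Cas allele was earlier in 15.9% of windows and the 129 allele in 6.90%, whereas in decile 6 the shares were 8.65% and 11.1%. The deciles rank windows by the mean of the same 2 alleles whose difference was tested, so the ranking and the calls are not independent.

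**Figure D1:**
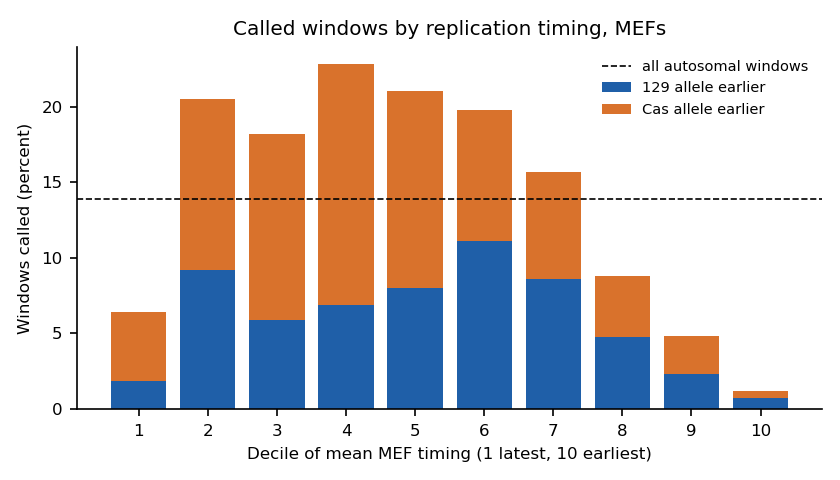
Percent of autosomal windows called between the alleles in MEFs (vertical axis) by decile of mean MEF timing, from 1 (latest) to 10 (earliest, horizontal axis). Blue parts of the bars are windows with an earlier 129 allele and orange parts windows with an earlier Cas allele; the dashed line is the 13.9% over all windows. Deciles 2 to 7 lie above the line and the earliest decile reaches 1.18%.

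Protein-coding genes overlapped 57.8% of all windows. Of the called windows 49.9% overlapped such a gene, of those with an earlier 129 allele 53.4% and of those with an earlier Cas allele 47.3%. The share called was 12% among windows with a gene and 16.5% among windows without. Of the 530 regions 109 held no protein-coding gene at all. By chromosome, the share of windows called ran from 9.33% on chromosome 2 to 18.8% on chromosome 12. The balance of directions varied too. The 129 allele was the earlier one in 76.2% of the called windows of chromosome 10 and 66.0% of those of chromosome 15, against 20.8% on chromosome 9 and 24.6% on chromosome 16.

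The region of largest mean difference with an earlier 129 allele held the imprinted genes Ndn, Magel2, Mkrn3 and Peg12. Ndn encodes necdin, a growth-restraining protein of neurons, and Magel2 a regulator of protein sorting, and both belong to the mouse counterpart of the Prader-Willi region. The 129 allele lay at -2.27, -2.21, -2.10 and -2.30 in embryos 1 to 4 and the Cas allele at -4.01, -4.14, -4.05 and -4.12. The alleles did not overlap, and both were late, at mean percentiles of 25.7 and 4.59 among the windows of their own columns. Alleles overlapped in none of the 28 named regions. These were picked by their difference or length in the same embryos, so the selection favours separate alleles, as a call does at single genes. The largest window, from 62150001, had a difference of 2.56 ± 0.13 (SE, limma adjusted p = 9.33e-05, n = 4 embryos). This region ended short of Snrpn, Snurf and Ube3a, other imprinted genes of the same chromosome arm. At Snrpn the difference was 0.05 and at Snurf -0.23, with both alleles of Snrpn between -4.45 and -3.55 in the 4 embryos, and at the maternally expressed ubiquitin ligase gene Ube3a it was 0.31. None of these 3 was called.

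The other regions with an earlier 129 allele held few familiar genes. On chromosome 2 from 22200001 to 22950000 lay Gad2, which makes the transmitter GABA, with the unconventional myosin Myo3a and the integrin activator Apbb1ip. Its 129 allele lay at 0.06, 0.22, 0.25 and -0.32 and its Cas allele at -1.05, -1.09, -1.10 and -1.31, a mean difference of 1.19 ± 0.17 (SD, n = 4 embryos). The alleles did not overlap and stood on the 2 sides of 0 in 3 of 4 embryos. A small region of chromosome 15 (99550001 to 99800000) held the acid-sensing channel gene Asic1, the cytokinesis gene Racgap1 and the chromatin remodelling gene Smarcd1. There both alleles were early, at 3.39 to 3.99 for 129 and 2.38 to 2.65 for Cas, and the 129 percentile was 97.2 against 82.4. At Snw1 and Slirp on chromosome 12 the alleles lay at 0.95 to 1.53 and -0.25 to 0.24.

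The second largest region, 550 kb on chromosome 16 with the odorant receptor genes Olfr164, Olfr165 and Olfr166, had differences of 1.45, 1.64, 1.75 and 1.23. The remaining members of the 10 largest held no protein-coding gene or only ones with provisional names. On chromosome 1 from 109550001 to 109900000 the difference was 1.32 ± 0.064 (SD, n = 4), with 129 at -2.55 to -2.34 and Cas at -3.95 to -3.68, and the annotation lists no protein-coding gene. Another region of chromosome 14 (94000001 to 94400000, 1.20 ± 0.08) had no annotated gene of any kind. On chromosome 1 from 27850001 to 28250000 the differences were 1.29, 0.71, 1.38 and 1.40, and at the predicted gene 9530002B09Rik on chromosome 4 they were 1.32, 1.62, 1.45 and 1.06. Embryos disagreed most in size at the predicted genes Gm9595, Gm20599 and Gm21933 on chromosome 13, where the differences were 0.62, 1.30, 1.33 and 1.93.

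With an earlier Cas allele, the largest mean lay at the predicted gene LOC108167368 on chromosome 12 (20650001 to 20950000). The 129 allele lay at -3.89, -2.93, -3.10 and -3.29 and the Cas allele at -1.55, -1.74, -1.58 and -1.52. The mean difference was -1.71 ± 0.48 (SD, n = 4), with embryo 1 the widest apart and no overlap of alleles. The next region, on chromosome 6 from 69100001 to 69750000, lay in the immunoglobulin kappa locus. It held 21 variable segments and 19 variable segment pseudogenes and no protein-coding gene by annotation. In it the 129 allele lay at -3.85 to -2.73 and the Cas allele at -2.24 to -1.57.

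The region of Grb10, an imprinted adaptor gene that restrains insulin signalling and growth, spanned 2050 kb of chromosome 11 (11200001 to 13250000). Besides Grb10 it held Ddc, which makes dopamine and serotonin, the lymphocyte regulator gene Ikzf1 and the actin nucleator gene Cobl. The 129 allele lay at -0.87, -0.83, -0.82 and -1.53 and the Cas allele at 0.38, 0.44, 0.45 and 0.04. The alleles stood on the 2 sides of 0 in every embryo, with a mean difference of -1.34 ± 0.15 (SD, n = 4). The difference was larger towards Cobl than at Grb10 itself. It was -0.76 ± 0.079 (SE, limma adjusted p = 0.000475) at Grb10 and -2.14 ± 0.12 (SE, limma adjusted p = 9.33e-05) in the window from 12550001.

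Other regions with an earlier Cas allele covered sulfotransferases and immune cell receptors. At Sult2a1, Sult2a2 and Sult2a4, liver enzymes that sulfate steroids and bile acids, the 129 allele lay at -3.39, -3.14, -3.28 and -3.74 and the Cas allele at -2.70, -2.02, -1.28 and -2.23. The alleles did not overlap, but the differences ran from -1.99 to -0.69 and 1 of 8 profiles had the other direction. With a trended, robust prior in limma the adjusted p of the largest window was 0.0592. At the receptor genes Cd48 and Slamf7 on chromosome 1 the alleles lay at -1.59 to -0.87 and -0.47 to 0.34, at Catsperb, a subunit of the sperm calcium channel, at -1.19 to -0.06 and 0.20 to 1.09, and at Otud6b, Lrrc69 and Pip4p2 at -1.53 to -1.19 and -0.15 to -0.07. In these 3 the alleles did not overlap either. The last 3 of the 10 largest, on chromosome 19 from 9400001 (-1.29 ± 0.27), around Gm7361 on chromosome 5 (-1.25 ± 0.17) and at the predicted gene Gm4951 on chromosome 18 (-1.23 ± 0.066, SD, n = 4), hold few genes of known function.

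**Figure D2:**
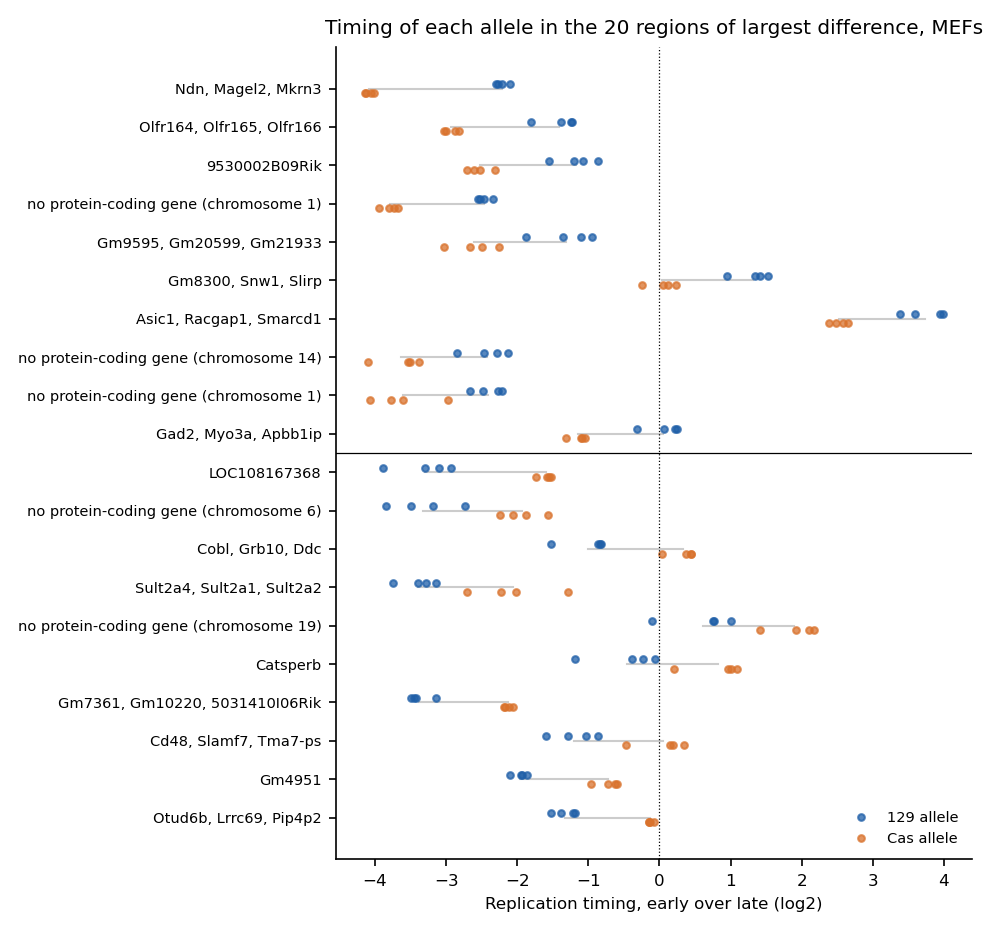
Timing of each allele (log2 of early over late, horizontal axis) in 20 regions (rows), the 10 with the largest means of each direction, 1 blue point per embryo for the 129 allele and 1 orange point for the Cas allele. A grey line joins the means. In no row do the points of the alleles overlap, which the choice of regions by their difference in these embryos favours. The Cas points of Ndn, Magel2 and Mkrn3 lie at -4.14 to -4.01.

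Several of the longest regions had small spreads between embryos. On chromosome 14 from 73100001 to 75350000, 45 windows around Htr2a, Esd and Lrch1 held 15 protein-coding genes, among them the retinoblastoma gene Rb1, the Mediator subunit gene Med4 and the actin bundling gene Lcp1. The 129 allele lay at 1.53, 1.52, 1.62 and 1.51 and the Cas allele at 0.46, 0.42, 0.47 and 0.49. The alleles were both early and far from overlap, with a difference of 1.08 ± 0.051 (SD, n = 4). On chromosome 15 from 57300001 to 58800000, around Klhl38, Anxa13 and Fam91a1, the difference was 0.91 ± 0.04, with 129 at 2.52 to 2.71 and Cas at 1.64 to 1.74. This region also held the muscle ubiquitin ligase gene Fbxo32 and the repressor genes Zhx1 and Zhx2. The region of Tmem26 and Rhobtb1 on chromosome 10 (0.64 ± 0.081) included the cell cycle kinase gene Cdk1 and the ankyrin gene Ank3.

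The longest region of all, 2500 kb on chromosome 1 (66500001 to 69000000), held the neuregulin receptor gene Erbb4 and the urea cycle gene Cps1. Its Cas allele was earlier, with 129 at -2.91, -2.63, -2.66 and -2.83 and Cas at -1.71, -1.59, -1.61 and -1.70. The difference was -1.10 ± 0.075 (SD, n = 4) and both alleles were late. On chromosome 9 (5500001 to 7500000, -0.86 ± 0.091) a region with an earlier Cas allele joined Pdgfd, a ligand of the platelet-derived growth factor receptor, with the collagenase and stromelysin genes Mmp1a, Mmp1b, Mmp3, Mmp12 and Mmp13. On chromosome 16 the region of Hspa13, Rbm11 and Samsn1 (-1.0 ± 0.11) also held the nuclear receptor corepressor gene Nrip1 and the axon guidance gene Robo2. The region of the synaptic gene Lrrtm4 on chromosome 6 had a difference of -0.94 ± 0.09.

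Imprinted genes were placed in the window at their midpoint. By this placing 9.52% of the 18217 measured protein-coding genes were called, with 129 earlier in 5.02% and Cas earlier in 4.50%. Of 56 measured imprinted genes 21 (37.5%) were called, in 19 windows, and 4 of 4 embryos had the direction of the mean at each. A call in these embryos itself favours such agreement. Among 28 genes listed as paternally expressed 129 was earlier at 7 and Cas at 5, and the list had a median difference of 0.19. Among 28 listed as maternally expressed 129 was earlier at 3 and Cas at 6, with a median of 0.09. Parental expression was not measured here. The parent of each gene follows the lists, which place Zim3 with the paternally expressed genes, and was not checked. Over all autosomal windows the median was -0.02. The called genes are not independent, since all but Tssc4 and Cd81, which share 1 window, lay in 9 regions.

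The genes listed as paternally expressed with an earlier 129 allele lay in 3 places. In the Ndn region the gene values were 2.12 ± 0.16 at Ndn, 2.17 ± 0.17 at Magel2, 2.15 ± 0.16 at Mkrn3 and 1.91 ± 0.14 at Peg12 (SE, n = 4 embryos). Embryo by embryo Ndn had 1.66, 2.77, 2.06 and 1.98, so embryo 2 was the widest apart.

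In the second place, on chromosome 7 from 6200001 to 7200000, the differences over the region were 0.99, 1.52, 1.27 and 0.84 around Peg3 and Zim3. Peg3 encodes a zinc finger protein that acts in growth and maternal care. At Peg3 the 129 allele lay at -0.85, -0.72, -0.61 and -0.91 and the Cas allele at -2.20, -2.44, -2.63 and -1.95, a difference of 1.53 ± 0.15 (SE, limma adjusted p = 0.000421). The alleles did not overlap. The maternally expressed Zim1 lay in the same region with 1.44 ± 0.13 (SE), and Zim3 had 1.65 ± 0.12 (SE). The last of these places was Impact on chromosome 18, a regulator of translation under stress, with a gene difference of 1.03 ± 0.14 (SE) and embryo values of 1.40, 0.52, 1.21 and 0.99.

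In the Dlk1 to Dio3 domain the direction was the opposite and was the same for genes expressed from either parent. Dlk1, a Notch-like ligand of growing tissues, Rtl1, a retrotransposon-derived placental gene, and Dio3, which inactivates thyroid hormone, are paternally expressed, and the long noncoding RNAs Meg3, Rian and Mirg are maternally expressed. All 6 were called with an earlier Cas allele. Over the region (108950001 to 110350000, 28 windows) the 129 allele lay at 1.02, 1.08, 0.95 and 0.97 and the Cas allele at 2.19, 2.22, 2.12 and 2.16. The differences were -1.17, -1.14, -1.18 and -1.19, the narrowest spread of the imprinted regions (SD 0.022), and both alleles were early. Within it the gene values were -1.08 ± 0.089 at Dlk1, -1.34 ± 0.095 at Meg3 and Rtl1, which share a window, -1.36 ± 0.093 at Rian, -1.49 ± 0.077 at Mirg and -0.77 ± 0.11 at Dio3 (SE, n = 4 embryos). When the spread was estimated together with ESC and NPC lines, Dlk1, Meg3, Rtl1 and Rian were no longer called, while the region's window of largest difference was.

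The remaining called genes had smaller differences. Asb4, a maternally expressed gene that encodes a subunit of a ubiquitin ligase, had -0.77 ± 0.08 (SE), with 129 at 0.07 to 0.35 and Cas at 0.84 to 1.05. The noncoding RNA Airn, which silences Igf2r on the paternal copy, had -0.56 ± 0.10 (SE), with embryo values of -0.54, -0.73, -0.71 and -0.25. The calcitonin receptor gene Calcr had -0.52 ± 0.084, the Polycomb group gene Sfmbt2 -0.51 ± 0.12 and the window of Tssc4 and the tetraspanin gene Cd81 0.50 ± 0.10 (SE). These genes lay near the size asked for and lost their call without single embryos. Sfmbt2 was at -0.44 without embryo 1 and -0.41 without embryo 4, Calcr at -0.46 and -0.50, and Tssc4 and Cd81 at 0.42, 0.49 and 0.48 without embryos 1, 2 and 3 in turn. Airn was at -0.49 without both embryos 1 and 3 and at -0.16 by its start coordinate.

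Well-known imprinted genes were among the 35 that were not called, with values from -0.34 to 0.43. At the growth factor gene Igf2 the difference was 0.18 ± 0.077, at its neighbour H19 -0.03 ± 0.11 and at the receptor gene Igf2r -0.16 ± 0.086 (SE). The noncoding Kcnq1ot1 had 0.41 ± 0.083, the signalling gene Gnas 0.37 ± 0.078 and the retrotransposon-derived Peg10 -0.34 ± 0.087 (SE), which passed the adjusted p (limma, 0.00768, 0.00904 and 0.0198) and not the size. In 18 of the 35 the 4 embryos had the same direction. Usp29, Nnat and Blcap had no window.

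**Figure D3:**
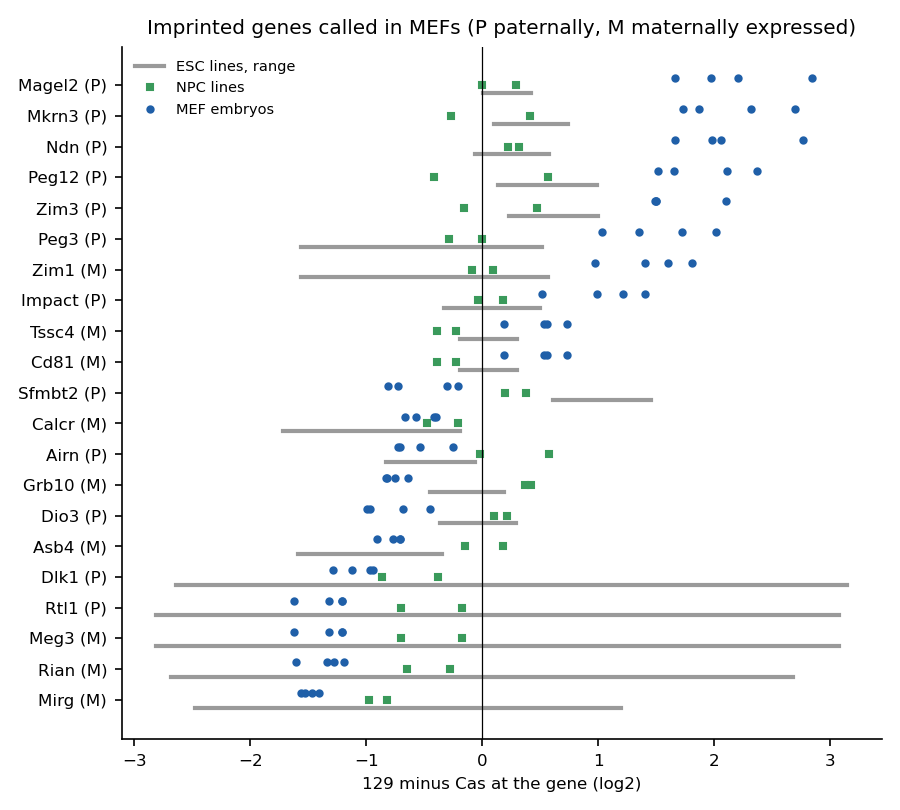
Difference of 129 minus Cas (log2, horizontal axis) at the 21 imprinted genes called in MEFs (rows, P for genes listed as paternally and M for genes listed as maternally expressed), with 1 blue point per MEF embryo, green squares for the 2 NPC lines and grey bars for the range of 5 ESC lines. The blue points lie to the right of 0 at 10 genes, from Tssc4 and Cd81 up to Magel2 (2.17), and to the left at 11, down to Mirg (-1.49).

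The imprinted regions were then set beside the same windows in ESCs and NPCs, to ask whether the allelic difference itself differed from that of other cells. MEFs differed from ESCs by at least 0.5 (limma adjusted p below 0.05) in 12023 windows (27.4%), higher in 12.3% and lower in 15.1%, and from NPCs in 2821 (6.42%), higher in 2.51% and lower in 3.91%. Both comparisons use the same embryos, so windows picked for a large MEF difference are favoured in them. Lines other than Cas129 carry the reverse cross label of the embryos, so cross and cell type are partly mixed in these comparisons. The NPC count rests on 2 lines. It was 1374 to 1649 when any 1 embryo was left out and 345 without embryos 1 and 3. It also fell below that first range with either NPC line left out, which leaves 1 line. The ESC count was 7109 without embryos 1 and 3. Timing levels were not compared across cell types except as percentiles, because the columns form 2 separately scaled sets. Allelic differences were compared in the deposited scale, so their sizes across cell types share this limit. With quantile normalization of all columns 11724 windows differed from ESCs and 2890 from NPCs.

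At the Ndn region the ESC lines had differences of -0.28 to 0.15 and the NPC lines 0.35 (Cas129) and -0.11 (F121-9), against 1.73 to 1.96 in the embryos. The largest window differed by 2.40 from ESCs and by 2.43 from NPCs (limma adjusted p = 1.78e-06 and 0.000643). In ESCs both alleles had similar percentiles, 16.6 for 129 and 17.8 for Cas, and in NPCs 31.9 and 30.5. In MEFs they stood at 25.7 and 4.59, so the Cas allele of MEFs had the lowest percentile of the 6.

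The Grb10 region also stood apart in MEFs. Its difference was 0.06 to 0.36 in the 5 ESC lines and 0.17 and 0.36 in the NPC lines, against -1.57 to -1.25 in the embryos. Of its 39 windows 38 were called against ESCs and 35 against NPCs. At Sfmbt2 the sign was the reverse of that in ESCs, where all 5 lines had a positive difference of 0.35 to 0.76, against a mean of -0.66 ± 0.042 (SD, n = 4) in the embryos. Its largest window differed by -1.38 from ESCs and by -1.15 from NPCs. At the region of Peg3, Zim3 and Zim1 the largest window differed by 1.80 from ESCs and by 1.98 from NPCs. There Cas129 ESCs, of the embryos' cross, had 0.56, and the lines of the reverse cross had 0.68 (F121), 0.47 (F121-6), 0.25 (F121-9) and -0.49 (F123).

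The Dlk1 to Dio3 domain showed no such difference at its largest window. The MEF value differed by -0.82 from ESCs and by -1.30 from NPCs, and neither passed (limma adjusted p = 0.0984 and 0.112). ESC lines were far apart there. The region had -1.44 in Cas129, -0.15 in F121, -0.46 in F121-6, -0.84 in F121-9 and 1.06 in F123, while the 4 embryos lay within 0.05 of each other. In NPCs it had -0.53 and -0.25. Of 28 windows 9 were called against ESCs and 5 against NPCs.

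**Figure D4:**
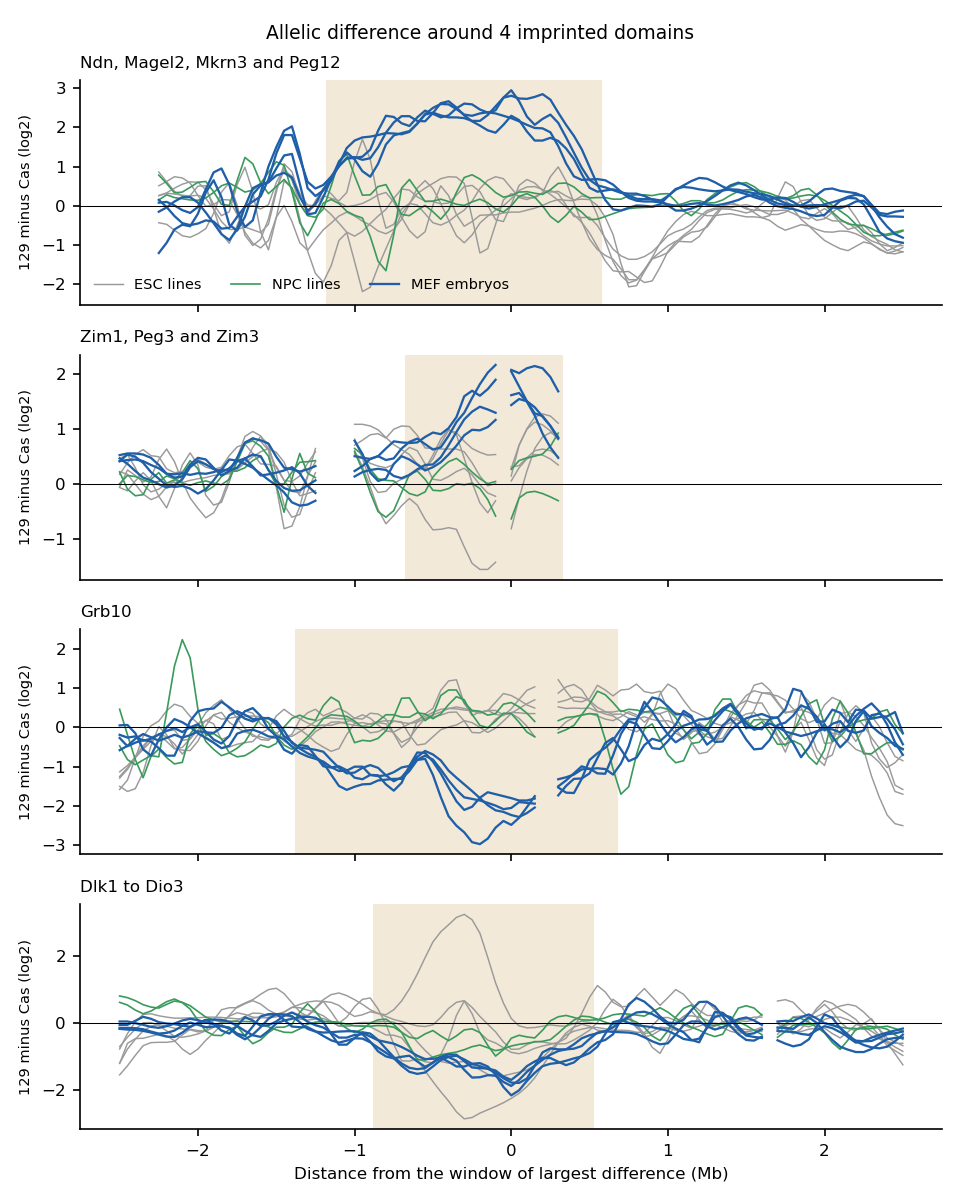
Allelic difference (129 minus Cas, log2, vertical axes) per 50 kb window around 4 imprinted domains, against the distance from the window of largest difference (Mb, horizontal axis), 1 line per MEF embryo (blue), ESC line (grey) and NPC line (green). Shading marks the region called in MEFs. The embryos are highest in the middle of the Ndn region and fall towards its edges, they lie below 0 within the shading at Grb10 and from Dlk1 to Dio3, and the ESC lines are widely spread from Dlk1 to Dio3.

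Over all 28 named regions, 16 differed from ESCs and 12 from NPCs at the window of largest MEF difference. Of all windows 27.4% and 6.42% did. The regions and windows were picked by their MEF values and the tests use the same embryos, so the selection favours a difference. Strong differences of 1 direction were also common to the cell types. At Olfr164, Olfr165 and Olfr166, receptors of odorants, the 5 ESC lines had 1.84 to 2.25, the NPC lines 0.96 and 1.74 and the embryos 1.23 to 1.75. At Cd48 and Slamf7 the ESC values were -2.58 to -1.39 and the MEF values -1.48 to -1.02. Catsperb had an earlier Cas allele in both cell types, with -3.11 to -1.68 in ESCs and -1.39 to -1.07 in MEFs, and is among the 16 that differed from ESCs in size. Among all 530 MEF regions, 43 had a mean ESC difference of at least 0.5 in the opposite direction and 364 one below that size, and the rest reached it in the MEF direction. Of all windows 25.8% reached that size in ESCs. In NPCs 82 regions reached it in the MEF direction and 9 in the opposite one, where 14.6% of all windows reached that size.

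The region of Klhl38, Anxa13 and Fam91a1 was one with opposite signs. Its mean was 0.91 in MEFs, with all ESC lines between -0.90 and -0.39 and the NPC lines at 0.09 and 0.02, and its largest window differed by 1.79 from ESCs and by 1.42 from NPCs. The Gad2 region differed as well, by 1.92 and 1.42, with ESC lines at -0.64 to -0.04. At Htr2a, Esd and Lrch1 ESC lines had 0.25 to 0.49 and NPC lines 0.43 and 0.24, in the MEF direction but smaller, and the largest window differed by 1.49 and 1.11.

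Some of the largest changes from ESCs were at loci where the embryos had little allelic difference. At Ptpro, which encodes a receptor phosphatase, and its neighbour Eps8 the embryos had -0.03, -0.13, -0.15 and -0.12 against 2.59 to 3.24 in ESC lines. At Trpc7 and Smad5 they had 0.34, 0.41, 0.37 and 0.16 against -2.04 to -1.79, and a stretch of this locus, from 56400001 to 56950000, was itself called in MEFs (mean 0.56). At the glutamate transporter gene Slc1a3 both cell types had a large difference, with 1.08, 0.96, 1.19 and 0.99 in the embryos against -1.35 to -0.46. At the carbonic anhydrase genes Car2 and Car3 the embryos had -1.02 to -0.78 against 1.70 to 2.24. Against NPCs, the largest changes other than at Ndn and Grb10 included the adhesion gene Cntn6, where the embryos had -1.60, -1.41, -1.45 and -1.39 and the NPC mean was 0.35.

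Lists of fibroblast biology were counted against the 9.52% of all protein-coding genes that were called. Of 37 measured collagen and matrix genes 4 had an earlier 129 allele and 1 an earlier Cas allele (13.5%, median difference 0.01). Spp1, which encodes osteopontin, had 0.94, 0.75, 0.81 and 0.79 in the embryos, with 129 at 1.77 to 2.11 and Cas at 0.93 to 1.31. The alleles of Spp1 did not overlap, and its mean was 0.82 ± 0.078 (SE, limma adjusted p = 0.000343), 1.54 higher than in ESCs. The fibroblast activation protease gene Fap had 0.66 ± 0.10 and the matrix gene Postn 0.58 ± 0.083 (SE), and both were called against ESCs, by 2.33 and 0.84. The protease inhibitor gene Timp3 had 0.52, and 0.49 without embryo 1, where its call was lost. The stromelysin gene Mmp3 had -0.70. Col1a1 was not called. Its differences were 0.08, 0.06, -1.29 and -0.11, so embryo 3 stood alone.

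Of 36 mesenchymal transcription factors only Gli3 (2.78%), an effector of Hedgehog signalling in the limb, was called. Its 129 allele lay at 0.92, 0.94, 0.94 and 0.66 and its Cas allele at -0.06, -0.01, -0.04 and -0.19. The alleles did not overlap and the difference was 0.94 ± 0.077 (SE, limma adjusted p = 0.000197). Gli3 did not differ from ESCs, where the lines had 0.35 to 1.52. Twist2 and Prrx1, regulators of mesenchyme, had -0.12 and 0.09 and were not called. Of 39 Hox genes, which set position along the body and fall in 13 windows, 0 were called by this limma test, and 4 had an unadjusted p below 0.05.

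Growth factors and their receptors had calls in both directions, with 129 earlier at 2 of 36 and Cas at 3 (13.9% in all, against 9.52% of all protein-coding genes). Kit, the receptor of stem cell factor, had its 129 allele at -1.23, -1.02, -0.85 and -1.07 and its Cas allele at -0.01, -0.01, -0.02 and 0.23. The alleles did not overlap, with a difference of -1.09 ± 0.10 (SE, limma adjusted p = 0.000298), and Kit differed from ESCs by -1.26 and from NPCs by -1.14, being lower in MEFs. Pdgfd had -0.86 and the limb growth factor gene Fgf10 -0.53, the latter not called without embryo 1 (-0.47). Hgf, the ligand of Met, had 0.70 and Inhba, a subunit of activin, 0.73. Hgf was 1.74 higher than in ESCs, whose lines lay at -1.28 to -0.70.

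Genes of the pluripotency network, whose core members are silent in fibroblasts, were also measured. Of 19 members 4 had an earlier 129 allele and 1 an earlier Cas allele (26.3%, against 9.52% of all protein-coding genes). Nanog and Dppa3 lie near each other on chromosome 6, where the differences were 0.74 ± 0.08 and 0.83 ± 0.084 (SE). At Nanog the 129 allele lay at 1.26, 1.09, 1.25 and 1.47 and the Cas allele at 0.40, 0.38, 0.63 and 0.71, with no overlap. Klf5 had 0.64, Dppa5a 0.52 (0.46 and not called without embryo 4) and Tcl1, a coactivator of the kinase Akt, -0.55. Tcl1 was opposite in ESC lines, at 1.69 to 2.59, a change of -2.66 (limma adjusted p = 9.51e-07).

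Of 16 neural precursor genes Fabp7 alone was called, with 0.80. Of 30 replication genes the origin recognition subunit gene Orc6 (-0.66, and -0.48 without embryos 1 and 3) and the helicase gene Mcm8 (-0.55, and -0.48 without embryo 4) had an earlier Cas allele and 0 genes an earlier 129 allele (limma, 5 at an unadjusted p below 0.05), where 9.52% of all protein-coding genes were called. Both lost their call at those second values. Of 17 housekeeping genes 0 were called (limma), and 4 had an unadjusted p below 0.05.

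Families of clustered genes were counted by symbol. Among 828 olfactory receptors 129 was earlier at 32 and Cas at 62, in 48 windows, with Olfr164 at 1.82. The share of 11.4% is near the 9.52% of all protein-coding genes. Serpins had 12 of 58 with an earlier Cas and 0 with an earlier 129 allele (limma, 3 at an unadjusted p below 0.05), and all 12 lay in the Serpinb cluster of chromosome 13, from Serpinb9g (-1.26) to Serpinb6d (-0.52). Sulfotransferases had 5 of 21 with an earlier Cas allele, from Sult2a4 (-1.80) to Sult1c2 (-0.79), and 1 with an earlier 129 allele, Sult6b1 (0.51). These are few loci, since cluster members share windows.

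Type 1 and type 2 vomeronasal receptors, which detect pheromones, were called in 10.3% and 12.9%, near the 9.52% of all protein-coding genes. Of 126 type 1 genes 11 had an earlier 129 allele, led by Vmn1r184 (1.07), and 2 an earlier Cas allele. At an unadjusted p below 0.05 (limma) these counts were 30 and 23. Of 93 type 2 genes 12 had an earlier Cas allele, such as Vmn2r11 (-0.97), and 0 an earlier 129 allele. At an unadjusted p below 0.05 (limma) 26 had an earlier Cas and 14 an earlier 129 allele. Zinc finger genes named Zfp had an earlier 129 allele at 32 and an earlier Cas allele at 11 of 319 (13.5% in all), with Zfp267 at 1.28 and Zfp981 at -1.70. The clustered protocadherins had 0 called of 57 (limma), in 11 windows, and 8 had an unadjusted p below 0.05. The difference between families was not tested.

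**Figure D5:**
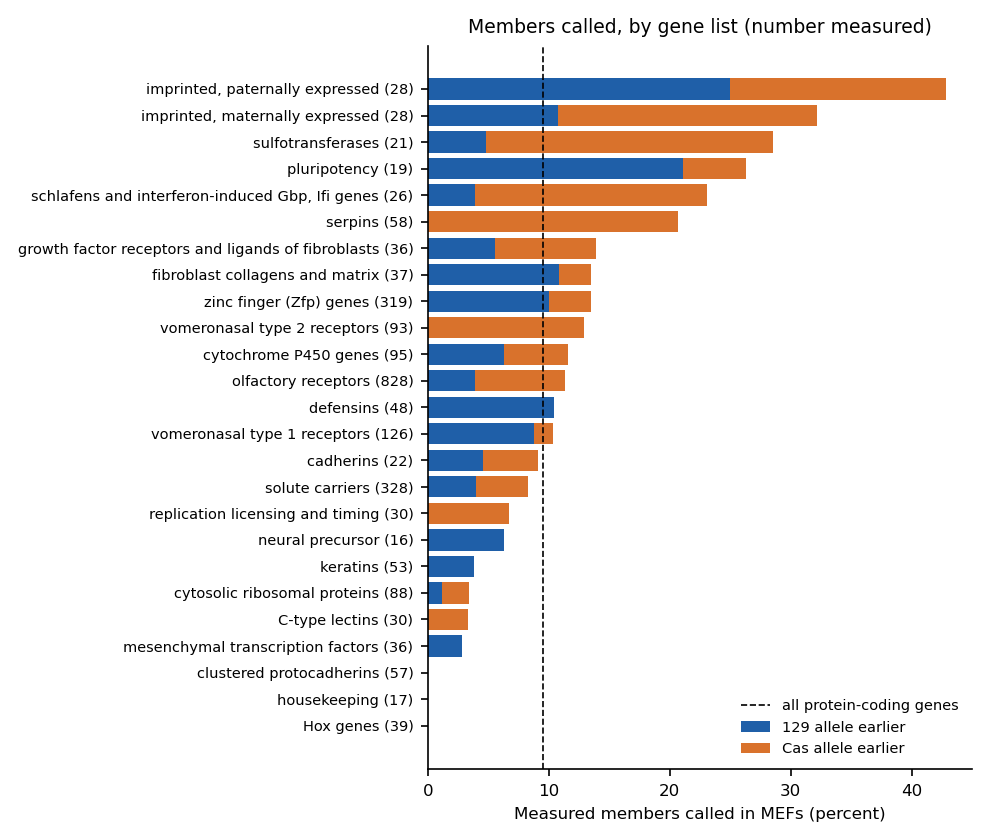
Percent of measured members called in MEFs (horizontal axis) for each gene list or family (rows, number measured in parentheses), blue for an earlier 129 and orange for an earlier Cas allele. The dashed line is the 9.52% over all protein-coding genes, and the imprinted genes listed as paternally expressed have the longest bar (42.9%).

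The miRNA genes take the values of the windows in which they lie. Of 1064 measured miRNA genes 180 (16.9%) were called, near the 13.9% of all windows. Of these calls 122 lay in 16 windows of 3 imprinted clusters. All 13 genes of the Mir344 cluster had an earlier 129 allele, with 2.25 to 2.45 in 9 windows. All 61 genes of the Dlk1 to Dio3 domain had an earlier Cas allele, with -1.49 to -0.77 in 6 windows. These 2 groups were drawn as the miRNA genes within the regions called above, in which all 35 and all 28 windows were called. Their full counts therefore follow from the grouping and are no further result. Another imprinted cluster, within an intron of Sfmbt2, had 48 of 72 genes called in 1 of its 2 windows, which stood at -0.51 and -0.47. Outside these 3 clusters 58 of 918 (6.32%) were called, against 13.9% of all windows. The share of 6.32% depends on the same grouping. The windows of miR-379-5p, miR-411-5p and miR-410-3p, printed above, stood at -1.49 ± 0.077 (SE), and that of miR-344d-3p and miR-344e-3p at 2.39 or 2.44 according to the copy.

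The embryos were also compared with each other. The difference of 129 minus Cas correlated at 0.517 to 0.616 between repeat profiles of an embryo and at 0.471 to 0.595 between profiles of different embryos (Pearson's r across windows, given as a description). An F test among the 4 embryos (limma) called 0 windows after adjustment, while 9.83% passed at an unadjusted p of 0.05. Between embryos labelled female and male 0 were called and 3.62% passed unadjusted. Each labelled group holds 1 embryo with a flat 129 X track and 1 without, so a difference between the X patterns would not show in that comparison. With 2 profiles an embryo, a difference between embryos that was not detected may still exist.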

How the data were processed

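The deposited table gives, per the file headers, 1 column per allele of each profile in windows of 50 kb. The authors' values are read here as log2 ratios of early to late signal, since the base of the logarithm is not given in the sources used here. Per the submitters' processing notes, Bowtie2, SAMtools and bedtools were used with the mm10 build. How reads were given to alleles, and any smoothing, are not given in the sources used here, and the table holds no counts, so depth is unknown. The deposited columns fall into 2 separately scaled sets, and 6 columns of other hybrids were not used.

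The difference of 129 minus Cas was computed per profile, averaged per embryo or line, and tested in each of the 43941 autosomal windows by limma (version 3.58.1, R version 4.3.3), two-sided and with Benjamini-Hochberg adjustment. The fibroblast fit held the 4 embryos, and the comparisons with other cells all lines. Calls needed an adjusted p below 0.05 and a size of at least 0.5. Regions are named if among the 10 largest by mean or the 5 longest of either direction, along with the 5 largest changes in each direction between cell types, every called member of the short gene lists, and the leading members of the families; 1 of the longest regions is not reported here. Genes, from RefSeq, were placed by midpoint. The fits were tested on simulated data. The members and lists were chosen with earlier results of these data known. The replicate numbers do not pair profiles across embryos, as deviations of like-numbered profiles correlated at -0.0149 to 0.0218. Alternatives covered scaling, the estimate of spread, left-out embryos, lines and replicates, thresholds and gene placing.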

Additional observations from a re-analysis of the deposited data

Results flagged for a closer look

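Among 35 regions tested for an embryo far from the others, 3 were found, where chance alone gives about 1 in 20. Embryo 4 had -1.57 over the region of Cobl, Grb10 and Ddc, and the others -1.28 to -1.25. Embryo 3 had 1.48 at Gm8300, Snw1 and Slirp, and the others 1.18 to 1.22. Embryo 2 had 0.71 in the region of chromosome 1 from 27850001, and the others 1.29 to 1.40.

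The allelic difference was tested between cell types at the window of largest fibroblast difference of each region. That window was picked by its MEF value, which favours a difference from other cells. Higher in MEFs than in ESCs were the windows of Ndn (2.40), Gm9595 (2.86), Gad2 (1.92), Peg3, Zim3 and Zim1 (1.80), Klhl38 (1.79), Htr2a (1.49), Catsperb (1.11), Impact (1.09) and Tmem26 (0.60), with those of chromosome 14 from 94000001 (1.64), chromosome 1 from 27850001 (1.35) and from 109550001 (1.04). Lower were those of Cobl, Grb10 and Ddc (-2.62), Hspa13 (-1.65), Pdgfd (-1.58), LOC108167368 (-1.42), Sfmbt2 (-1.38) and Lrrtm4 (-1.29).

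Against NPCs, and with the same embryos, the higher windows were those of Ndn (2.43), Peg3, Zim3 and Zim1 (1.98), chromosome 14 from 94000001 (1.51), Gad2 (1.42), Klhl38 (1.42), Htr2a (1.11), Impact (1.00) and Tmem26 (0.78). The lower ones were those of Cobl, Grb10 and Ddc (-2.63), Gm7361 (-1.57), Erbb4 (-1.15), Lrrtm4 (-1.15), Sfmbt2 (-1.15), Hspa13 (-1.03) and Pdgfd (-0.85).

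Over whole regions, the largest rises from ESCs to MEFs were at Trpc7 and Smad5 (2.20), Fam241a (2.17), Gm9595 (2.08), Slc1a3 (2.04) and Mad2l1 (1.98). The largest falls were at Eps8 and Ptpro (-3.00), Car2 and Car3 (-2.79), Slc15a5 (-2.40), E2f7, Nav3 and Csrp2 (-1.99), and Tgs1, Tmem68 and Lyn (-1.96). Against NPCs the rises were at Vmn2r69 (2.40), chromosome 3 from 71950001 (2.23), Ndn (2.05), Cylc2 (1.92) and chromosome 12 from 42450001 (1.80). The falls were at chromosome 1 from 114100001 (-2.17), chromosome 3 from 112650001 (-2.08), Prpmp5 (-2.02), Cntn6 (-1.81) and Grb10 (-1.72).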

How the results depend on the processing

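The 6109 windows called between the alleles in MEFs became 5930 to 6449 when an embryo or a replicate number was left out 5654 to 6095 under the other fits and scalings, and 6359 without embryos 1 and 3. Without a minimum size there were 14713, and with a minimum size of 1 there were 993. The 530 regions became 299 with a minimum length of 400 kb. The 12023 windows that differed from ESCs became 7109 without embryos 1 and 3 and 4181 with a minimum size of 1. The 2821 that differed from NPCs became 1086 to 1649 with 1 line or embryo left out, 1086 with only Cas129 as NPCs, 345 without embryos 1 and 3, and 1414 with a minimum size of 1. The causes were not tested.

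The replicate numbers share only a number. With the replicate number as a block in a fit of profiles, 6050 windows were called in MEFs, 12248 against ESCs, 1933 against NPCs and 0 among embryos, with 527 regions and 40 listed genes. The call of a region was judged only at its window of largest difference or change. Of the 35 regions all kept their call there under the alternatives run, except that of Sult2a4, Sult2a1 and Sult2a2 with a trended, robust prior. Of the 10 regions named against NPCs, chromosome 3 from 71950001, Cylc2 and Prpmp5 missed the threshold without the F121-9 NPCs, chromosome 12 from 42450001 without the Cas129 NPCs, and all 4 without embryos 1 and 3. Prpmp5 also missed it without embryo 4 and with the block. The 10 named against ESCs kept theirs. Depth is unknown, and 4 embryos of 1 cross limit the precision.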

Other observations

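Further families and single genes had calls in MEFs by the same test, which called 9.52% of all protein-coding genes. Solute carrier genes, which encode membrane transporters, had 27 called of 328 (8.23%), 129 being earlier at 13 and Cas at 14, from Slc1a3 (1.07) to Slc22a28 (-1.50). Cytochrome P450 genes, enzymes of drug and steroid metabolism, had 6 and 5 of 95 (11.6%), from Cyp2a4 (1.01) to Cyp4v3 (-0.70). Of 26 schlafen and interferon-induced genes 5 had an earlier Cas allele, led by Slfn1 (-0.77), and Ifi47 an earlier 129 allele (0.61), together 23.1%. All 5 defensin genes called, of 48 (10.4%), had an earlier 129 allele in 2 windows of chromosome 14 (0.55 and 0.64). Ribosomal protein genes had 3 called of 88 (3.41%), Rpl21 (0.70), Rpl14 (-0.67) and Rps6 (-0.56).

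Among miRNA genes outside the imprinted clusters, Mir181a-1 and Mir181b-1, members of a family that acts in lymphocytes, had an earlier 129 allele, with 0.92 ± 0.076 (SE) and embryo values of 0.87 to 0.99. Mir3967 had 1.52 in the Gad2 region. Mir7683 had -1.58 beside Cd48, and Mir7656 had -1.12.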
